A study of Homo sapiens with 6 samples.

Results

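The cathepsin family comprised 10 genes, CTSA, CTSB, CTSC, CTSD, CTSF, CTSH, CTSK, CTSL, CTSO and CTSZ, and 9 of them had a row among the 10542 genes of the deposited table. CTSO was not analysed here. The members were chosen by name. Both groups were DU145, an established human prostate cancer cell line, grown in culture. DU145-TFEB cells had received a TFEB overexpression lentivirus and DU145-vector cells the blank vector lentivirus, and puromycin was used to select stable lines. Each group had 3 libraries of polyadenylated RNA. Neither the promoter of the construct, nor whether a line was a clone or a pool, nor whether the libraries came from separate cultures is given in the sources used here, so p-values measure the spread between these libraries, which may be technical. TFEB itself had 6325, 6301 and 6036 normalized counts in replicates 1 to 3 of DU145-TFEB and 127, 124 and 125 in those of DU145-vector, a 49.6-fold difference in the labelled direction.

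Cathepsins are proteases that work mostly inside lysosomes, the acidic compartments in which cells break down proteins. Most are cysteine proteases related to papain, while CTSD is an aspartic protease and CTSA a serine carboxypeptidase. They are made as inactive precursors, tagged with mannose 6-phosphate in the Golgi apparatus, carried to endosomes by receptors for that tag, and cleaved to their active form at low pH. TFEB is a transcription factor that binds an E-box motif in the promoters of many lysosomal genes, several cathepsins among them. Tumor cells can also secrete cathepsins, which then cut proteins of the extracellular matrix.

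The values are normalized counts, that is, reads on a gene divided by 1 size factor per library, and the 6 libraries held between 13999961 and 16511477 reads on the listed genes. The groups were compared with limma, after log2(normalized count + 1), and p-values were adjusted over all listed genes by Benjamini-Hochberg. Every gene in the table had an adjusted p-value below 0.05 in the comparison of the authors, so nearly every gene passes such a test again, and the direction, the size and the order of the changes are what the members can show.

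In DU145-TFEB, 8 of the 9 cathepsins were higher and 1, CTSK, was lower than in DU145-vector, all with an adjusted p-value below 0.05 in limma. Of all listed genes, 47.6% were called higher and 52.4% lower. The groups of 3 libraries did not overlap for any of the 9 genes, as for 99.3% of the listed genes. The log2 fold changes ran from -0.75 to 1.58 with a median of 0.71, while the median of all listed genes was -0.36. CTSB, CTSD, CTSH and CTSA more than doubled in mean, and these 4 had log2 fold changes above 1 in the higher direction, against 8.41% of the listed genes. At the cutoff of the study, an absolute log2 fold change above 1.5, CTSB alone counted as a differentially expressed gene (DEG) by limma. Of the listed genes, 2.54% were DEGs higher and 16.5% were DEGs lower. This cutoff lay close to CTSD as well, which passed it, together with CTSB, under 4 other scalings or tests and without DU145-vector replicate 1. DESeq2, which the study used, was among these 4 and gave CTSD a log2 fold change of 1.67 on recovered reads. With quantile normalization CTSD and CTSH passed it and CTSB did not. Values also moved with the GC content and the length of genes. With the trend over both removed, CTSB, CTSD, CTSH and CTSC were higher, CTSF, CTSZ and CTSK were lower, and CTSA and CTSL did not pass, while 14.8% of the listed genes were called higher and 54.5% lower.

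**Figure D1:**
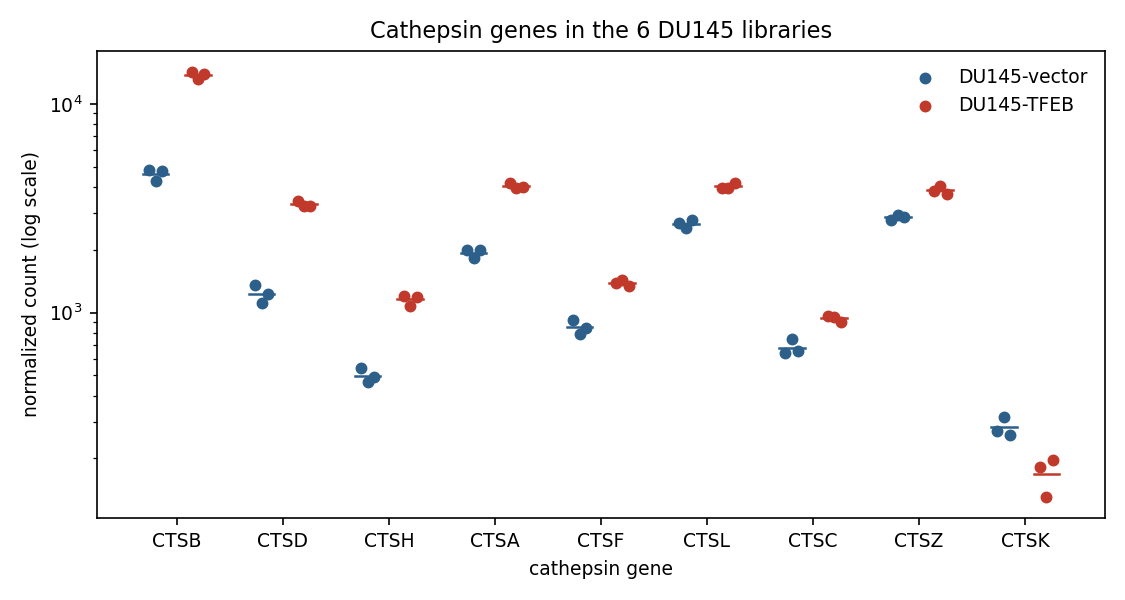
Normalized counts of the 9 cathepsin genes on a log axis, with 1 point per library (blue, DU145-vector; red, DU145-TFEB) and a line at the mean of the 3 libraries of a group. CTSB reached 13123 to 14227 in DU145-TFEB against 4270 to 4807 in DU145-vector, and CTSK was the only gene whose DU145-TFEB libraries all lay below the DU145-vector libraries.

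CTSB, a cysteine protease that cuts within proteins and also removes dipeptides from their C-terminal end, is the gene ENSG00000164733 (GRCh38 chromosome 8, 11842524 to 11869448, minus strand). It had 14227, 13123 and 13959 normalized counts in replicates 1 to 3 of DU145-TFEB, and 4807, 4270 and 4754 in those of DU145-vector. The lowest DU145-TFEB library was thus well above the highest DU145-vector library, and replicate 2 was the lowest of each group. Means were 13769.9 ± 576 and 4610 ± 296 (SD, n = 3 per group), a 2.99-fold difference with a log2 fold change of 1.58 ± 0.072 (SE, adjusted p = 2.30e-06 by limma). No other cathepsin had as many normalized counts in either group or as large an increase, and 97.9% of the listed genes had a lower log2 fold change. CTSB overlaps AC025857.2 on the same strand in GENCODE 29, a gene without a row in the table, and reads in the shared stretch cannot be told apart.

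CTSD, the main aspartic protease of the lysosome (ENSG00000117984, chromosome 11 from 1752752 to 1764573, minus strand), had 3438, 3251 and 3246 normalized counts in DU145-TFEB and 1353, 1115 and 1221 in DU145-vector. Its log2 fold change was 1.43 ± 0.084 (SE, adjusted p = 2.42e-06 by limma), from 1229 ± 119 to 3312 ± 109 (SD, n = 3 per group). Within DU145-vector the libraries spread by more, relative to the mean, than within DU145-TFEB. In GENCODE 29, CTSD overlaps AC068580.3 on the opposite strand and AC068580.1 on its own strand, both also in the table. It further overlaps AC068580.4 on its own strand, a gene without a row in the table. Since the strand setting of the counting is not given, reads in the shared stretches cannot be told apart.

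CTSH, an aminopeptidase of the papain family (ENSG00000103811, chromosome 15 from 78921058 to 78949574, minus strand), had 1205, 1077 and 1183 normalized counts in DU145-TFEB and 541, 465 and 490 in DU145-vector. It was among the less abundant members but came after CTSB and CTSD in the size of the change, with a 2.32-fold difference and a log2 fold change of 1.21 ± 0.093 (SE, adjusted p = 5.28e-06 by limma). CTSA, the serine carboxypeptidase also known as protective protein because it stabilizes the lysosomal enzymes beta-galactosidase and neuraminidase, lies on chromosome 20 from 45890144 to 45898820 on the plus strand (ENSG00000064601). It had 4179, 3951 and 3998 normalized counts in DU145-TFEB and 1987, 1828 and 1996 in DU145-vector. The mean doubled, from 1937 ± 94.6 to 4043 ± 121 (SD, n = 3 per group), with a log2 fold change of 1.06 ± 0.069 (SE, adjusted p = 3.26e-06 by limma). CTSA overlaps NEURL2, AL008726.1 and PLTP on the opposite strand, and the same reservation holds as for CTSD.

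The 4 members with smaller increases were CTSF, CTSL, CTSC and CTSZ. CTSF, a papain-family protease with a long propeptide (ENSG00000174080, chromosome 11 from 66563463 to 66568841), had 1378, 1440 and 1337 normalized counts in DU145-TFEB and 925, 786 and 840 in DU145-vector, a log2 fold change of 0.71. CTSL, a potent endopeptidase (ENSG00000135047, chromosome 9 from 87725519 to 87731393), had 3958, 3933 and 4166 against 2694, 2539 and 2766, a log2 fold change of 0.59. These DU145-TFEB and DU145-vector libraries were apart by more than the spread within either group. CTSC, the dipeptidyl peptidase that activates serine proteases of immune cells (ENSG00000109861, chromosome 11 from 88293592 to 88337787), had 959, 955 and 900.2 normalized counts in DU145-TFEB and 637, 745 and 652 in DU145-vector, a log2 fold change of 0.47. CTSZ, a carboxypeptidase also called cathepsin X (ENSG00000101160, chromosome 20 from 58995185 to 59007247), had 3834, 4040.1 and 3686 against 2781, 2926 and 2872, a log2 fold change of 0.43. For CTSC, DU145-vector replicate 2 lay nearest to the other group. All 4 passed the limma test, with standard errors of 0.066 to 0.090 and adjusted p-values of 3.21e-05 to 8.16e-04.

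CTSK, a collagen-cutting protease best known from osteoclasts (ENSG00000143387, chromosome 1 from 150796208 to 150808323, minus strand), went the other way. It had 181, 131 and 195 normalized counts in DU145-TFEB and 271, 317 and 259 in DU145-vector. Replicate 2 was the lowest DU145-TFEB library and also the highest DU145-vector library, so the distance between the groups was uneven. The mean in DU145-vector was 1.67-fold that in DU145-TFEB, with a log2 fold change of -0.75 ± 0.169 (SE, adjusted p = 0.00203 by limma). It had the fewest normalized counts of the members, with at least 144 reads in every library, and its change lay nearer to the median of the listed genes than that of any higher member. With quantile normalization CTSK no longer passed the test (log2 fold change -0.27, limma adjusted p = 0.0818). CTSK overlaps UBE2D3P3, which has no row in the table, on the opposite strand.

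**Figure D2:**
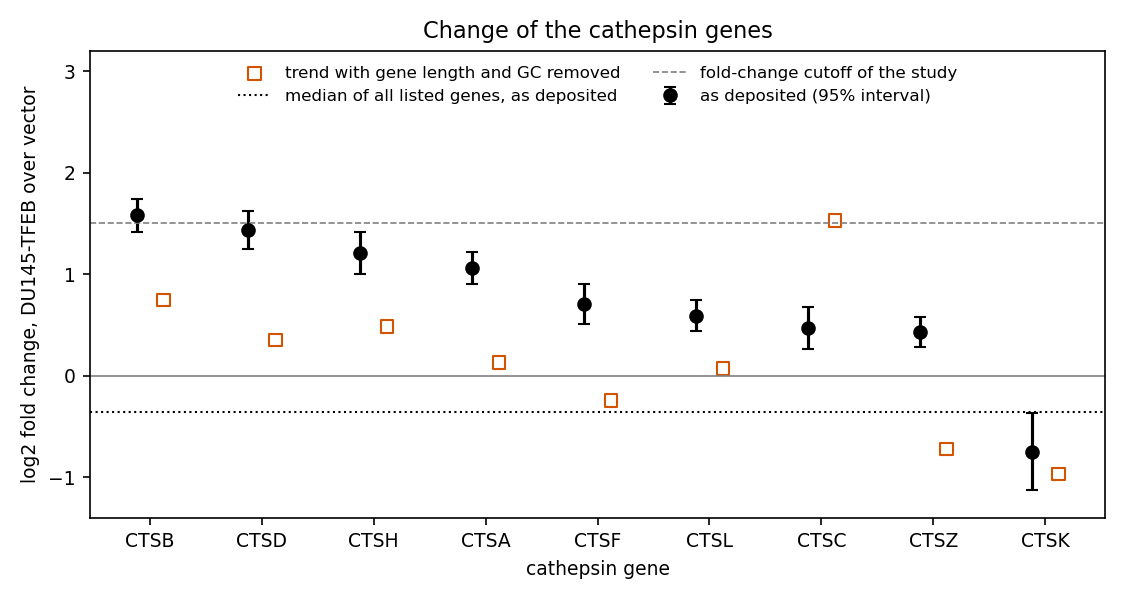
Log2 fold change of each cathepsin gene in DU145-TFEB over DU145-vector. Black points with 95% intervals are the limma estimates from the deposited normalized counts. Open squares are the estimates after the trend with gene length and GC content was removed from each library. The estimates from the deposited counts fall from 1.58 in CTSB to -0.75 in CTSK, and after the removal CTSC, with 1.53, is the highest.

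Members next to each other in this order were compared by their ratio within each library, on the log2 scale. For 5 of the 8 neighboring pairs the ratios of the 3 DU145-TFEB libraries did not overlap those of the 3 DU145-vector libraries. The log2 ratio of CTSD to CTSH, for example, lay between 1.46 and 1.59 in DU145-TFEB and between 1.26 and 1.32 in DU145-vector (exact two-sided permutation p = 0.1, the smallest that 3 libraries against 3 allow, not adjusted over the 8 pairs). For CTSH and CTSA the ranges nearly met, with a lowest DU145-TFEB ratio of -1.874 and a highest DU145-vector ratio of -1.875. The pairs were formed from the same fold changes. The share of such pairs among all listed genes was not computed, so the count of 5 is a description only. For the remaining 3 pairs, CTSF and CTSL, CTSL and CTSC, and CTSC and CTSZ, the ratios overlapped (exact two-sided permutation p of 0.2, 0.6 and 0.6). The order of these 4 genes by fold change was thus not resolved between neighbors, while CTSK stood 1.18 below CTSZ on the log2 scale. This order is that of the limma estimates from the deposited normalized counts. With quantile normalization CTSD (1.53) and CTSH (1.52) were above CTSB (1.45), and CTSC (0.78) above CTSL (0.60). With the trend over gene length and GC content removed the order was CTSC, CTSB, CTSH, CTSD, CTSA, CTSL, CTSF, CTSZ and CTSK, with -0.72 for CTSZ and -0.97 for CTSK.

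Levels were compared between genes as normalized counts per kilobase of gene length. By this measure CTSZ and CTSL were the most abundant members in DU145-vector, with 1403 ± 36.0 and 1127 ± 49.1 per kilobase (SD, n = 3), and CTSB followed with 621 ± 39.8. In DU145-TFEB, CTSZ (1891 ± 87.2), CTSB (1854 ± 77.5) and CTSL (1699 ± 54.0) were close together, and the libraries of CTSZ and CTSB overlapped. CTSB had therefore moved from well below CTSL to above it in all libraries. CTSD, CTSA and CTSF came next in both groups, and in DU145-vector the libraries of CTSA and CTSF overlapped. At the lower end CTSK had a higher level than CTSH in DU145-vector (150 ± 16.3 against 84.7 ± 6.56) and a lower level in DU145-TFEB (89.6 ± 17.9 against 196 ± 11.6), where it overlapped CTSC (82.1 ± 2.85).

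Summed over the 9 members, the level was 8143.5, 7959 and 8014 per kilobase in replicates 1 to 3 of DU145-TFEB and 4533, 4336 and 4517 in those of DU145-vector. The spread within a group was small beside the difference, and the log2 ratio of the group means was 0.85 (exact two-sided permutation p = 0.1, the smallest possible with these libraries). In bulk libraries, more cells with a transcript and more of the transcript per cell cannot be told apart. The sum was not computed with the trend over gene length and GC content removed, where CTSZ was lower and CTSL did not pass. The make-up of the sum also differed. CTSB made up 23.1% ± 0.744 of it in DU145-TFEB and 13.9% ± 0.560 in DU145-vector, and CTSD 13.2% ± 0.290 and 8.81% ± 0.675. CTSZ went from 31.5% ± 1.52 in DU145-vector to 23.5% ± 1.23, CTSL from 25.2% ± 0.577 to 21.1% ± 0.744, and CTSK from 3.36% ± 0.451 to 1.11% ± 0.216 (SD, n = 3 per group throughout). These shares depended on the length assigned to a gene, because the authors' gene length counts all exons of all isoforms. With the mean length of the coding transcripts instead, CTSB took 50.2% in DU145-TFEB and 36.8% in DU145-vector and was the highest member in both groups, so the rise of its share remained and its rank did not. CTSK was then below CTSH in both groups, with 1.92% against 3.24% in DU145-vector and 0.523% against 3.42% in DU145-TFEB, so the exchange of their places was seen only with the gene length of the authors.

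**Figure D3:**
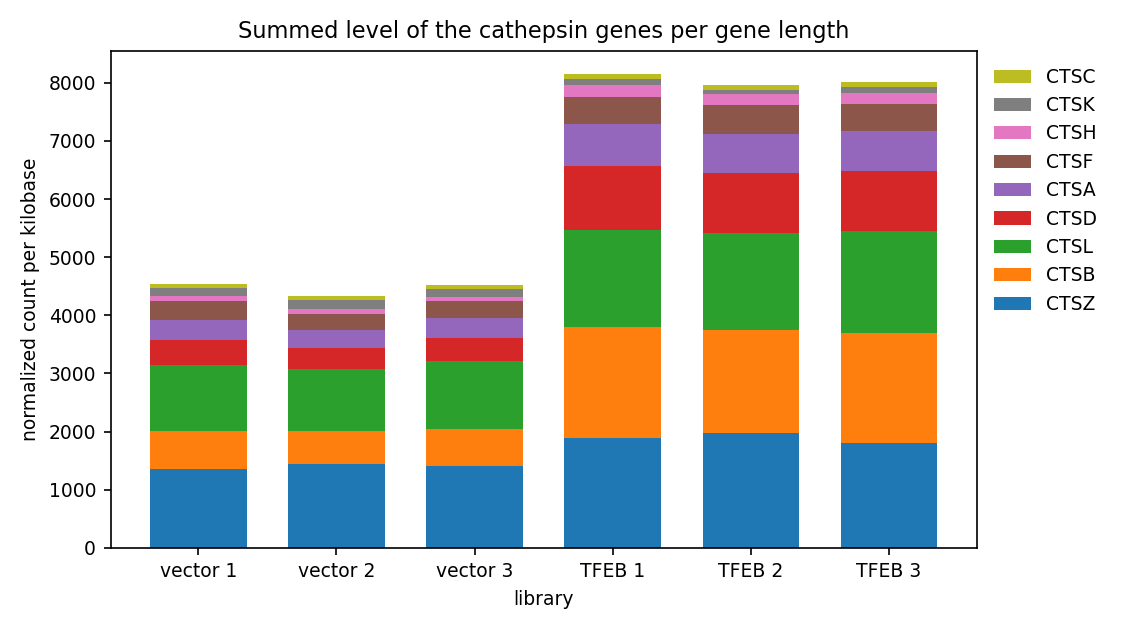
Level of the 9 cathepsin genes in each library as stacked bars, in normalized counts per kilobase of gene length, with 3 libraries per group. The sums were 4336 to 4533 in DU145-vector and 7959 to 8143.5 in DU145-TFEB, and the CTSB segment grew the most, from 621 to 1854 on average.

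Among the listed genes as a whole, the direction of change followed the GC content of the transcripts, and the cathepsins have to be read against this. Sorted by GC content into 5 bins of equal size, the listed genes had median log2 fold changes of -1.41, -1.08, -0.42, 0.53 and 0.67 from the lowest bin to the highest. In bin 4, with 52.0% to 58.9% GC, 90.5% of genes had a higher value in DU145-TFEB. Of the 9 cathepsins, 6 were in bins 4 and 5, and the GC content of the members ran from 41.4% in CTSC to 63.4% in CTSD. Set against the median of their own bin, 7 members lay above it and 2, CTSZ and CTSK, below it. CTSC (41.4% GC) was 1.55 above the median of its bin on the log2 scale, CTSB (56.1% GC) 1.05 above, CTSL (50.2% GC) 1.02 above, CTSD 0.77 above, CTSH 0.68 above, CTSA 0.53 above and CTSF 0.17 above, while CTSZ (60.3% GC) was 0.24 below and CTSK (46.7% GC) 0.33 below. In the bin of CTSC, 7.64% of genes had a higher value in DU145-TFEB. The bin of CTSL ended at 52.0% GC and the next bin had a median of 0.53, so its distance depends on where the bins were cut.

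When the trend with gene length and GC content was removed from each library, 4 cathepsins were higher, 3 were lower and 2 did not pass the test, against 14.8% of the listed genes called higher and 54.5% called lower. CTSB kept a log2 fold change of 0.75 (limma adjusted p = 4.30e-06), CTSH of 0.49 (limma adjusted p = 8.30e-04) and CTSD of 0.35 (limma adjusted p = 0.00219), and CTSC rose to 1.53 (limma adjusted p = 1.15e-06). CTSC is the longest member, with a gene length of 11421 bases, and has the lowest GC content, and the removal moved it up while it moved CTSD and CTSZ, the members with the highest GC content, down. CTSA, with 0.13 (limma adjusted p = 0.113), and CTSL, with 0.07 (limma adjusted p = 0.367), no longer passed. CTSF (-0.24) and CTSZ (-0.72) changed direction, and CTSK stayed lower (-0.97). The median of the members was then 0.13, against -0.32 for all listed genes, and whether the trend arose in the preparation of the libraries or in the cells was not tested.

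**Figure D4:**
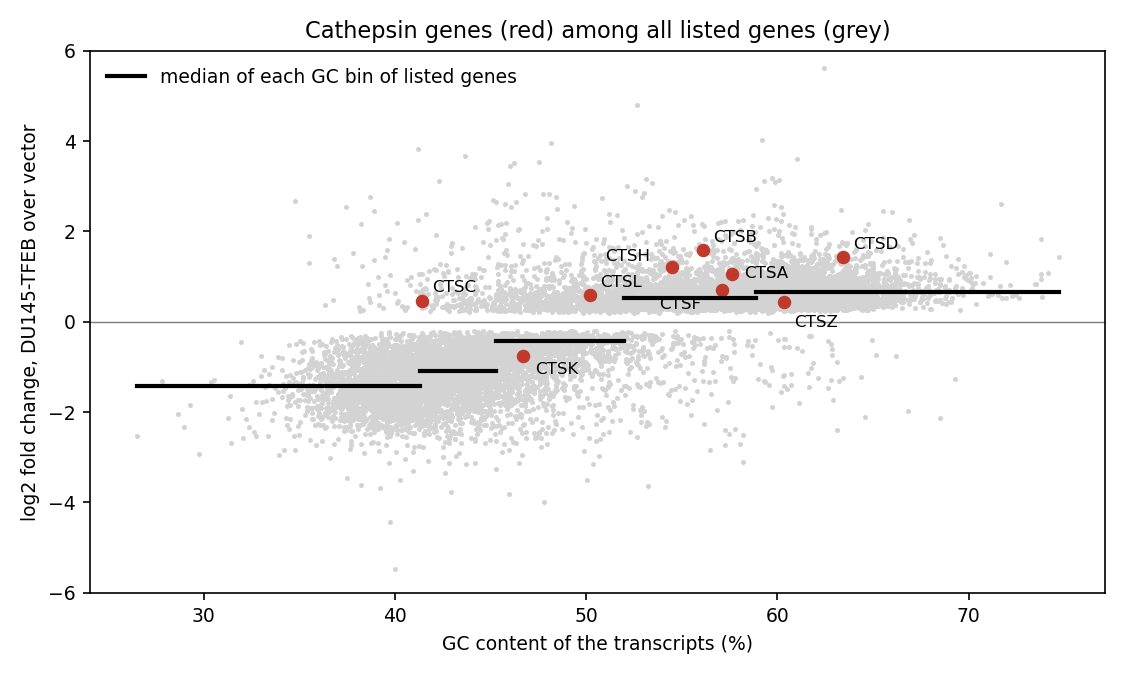
Log2 fold change of the listed genes (grey) and of the 9 cathepsin genes (red, named) against the GC content of their transcripts in percent. Black bars mark the median of each of 5 bins of equal size, from -1.41 to 0.67, and CTSC, CTSB and CTSL lie 1.02 to 1.55 above the bar of their bin. CTSL (50.2% GC) lies near the upper edge of its bin, at 52.0%, and had 0.07 with the trend removed.

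RefSeq promoter sequences (GRCh38.p14, 250 bases before to 50 bases after the start of the gene) were matched by symbol to 7 of the 9 members, namely CTSA, CTSC, CTSD, CTSF, CTSH, CTSL and CTSZ. They were searched for the E-box core CACGTG, which reads the same on both strands, for TCACGTGA, which contains it, and for the form with a further G before and C after these letters, both also the same on either strand. The core was found in CTSA, CTSD and CTSF, with 5 matches in all, and in 7.26% of the 35116 promoters in the table and 9.19% of the 11157 that belong to listed genes. These 4 windows show each match with its surrounding bases on the strand of the gene, 5′ to 3′, with the core in capitals.
CTSA, chr20:45891289-45891318, plus strand: ctgtCACGTGgcgccggagttCACGTGact
CTSD, chr11:1763957-1763986, minus strand: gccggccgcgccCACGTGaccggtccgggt
CTSF upstream match, chr11:66568712-66568741, minus strand: acatataacaagCACGTGatagaggtcagt
CTSF downstream match, chr11:66568640-66568669, minus strand: ccctgcgcgcccCACGTGcctcctgtaaac

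The matches of CTSA began 42 and 25 bases before the RefSeq start of the gene, that of CTSD 47 bases before it, and those of CTSF 123 and 51 bases before it. In GENCODE 29 all but the downstream CTSF window overlapped an exon of an isoform of the same gene that starts further upstream. The second match of CTSA was the only one in the form TCACGTGA, which 0.98% of all promoters and 1.75% of those of listed genes hold. The longest form, present in 0.353% and 0.690% of them, was in none of the 7. The 3 genes with a core match had log2 fold changes of 1.43 (CTSD), 1.06 (CTSA) and 0.71 (CTSF), and the 4 without one had 1.21 (CTSH), 0.59 (CTSL), 0.47 (CTSC) and 0.43 (CTSZ). The ranges overlapped. A match describes the letters of the window and is not a measurement of binding.

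Of 6 further genes of the family that were considered, CTSS and CTSV were analysed, and both were lower, CTSV not under all settings. CTSS, a cysteine protease typical of antigen-presenting cells, had 16.8, 4.55 and 1.04 normalized counts in DU145-TFEB, or 16, 5 and 1 reads, and 68.6, 64.4 and 63 in DU145-vector. The spread among the DU145-TFEB libraries was wide at these low counts, and the log2 fold change of -3.50 ± 0.638 (SE, adjusted p = 6.03e-04 by limma) ran from -4.30 to -2.74 as single libraries were left out. CTSV, the closest relative of CTSL, had 488, 475 and 458 against 599, 590.1 and 597, a log2 fold change of -0.33 (limma adjusted p = 0.00439) that became 0.10 with quantile normalization and 0.30 with the trend removed. CTSV did not pass with quantile normalization, upper quartile scaling, the size factors of DESeq2 or DESeq2 itself. CTSS and CTSK lie side by side on chromosome 1, 30250 bases apart and on the same strand. Of the 9 other listed genes within 250 kb of the pair, 6 were higher and 3 were lower in DU145-TFEB, beside 47.6% and 52.4% of all listed genes, with log2 fold changes from -0.89 to 0.83. With the trend removed all 9 had values below 0, from -0.60 (ANXA9) to -0.13 (TARS2), around the median of -0.32 of all listed genes, of which 54.5% were then called lower. CTSK had -0.97 and CTSS -2.66.

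Of 13 listed inhibitors of cathepsins, CST3 and CSTB were analysed, and both were higher as deposited, as were 47.6% of the listed genes. CST3 encodes the secreted cystatin C and had a log2 fold change of 0.50, with 1710 ± 107 normalized counts in DU145-vector and 2422 ± 128 in DU145-TFEB (SD, 3 libraries each, limma adjusted p = 2.18e-04). CSTB, a cystatin of the cytosol, had 0.23 (limma adjusted p = 0.0213), and no longer passed without DU145-TFEB replicate 1 (0.19, limma adjusted p = 0.0980), DU145-vector replicate 1 (0.23, limma adjusted p = 0.0582) or DU145-vector replicate 3 (0.23, limma adjusted p = 0.0555). CST3 lay between CTSL (0.59) and CTSC (0.47), and CSTB below the 8 cathepsins that were higher. With the trend removed CST3 did not pass (-0.10, limma adjusted p = 0.134) and CSTB was lower (-0.37, limma adjusted p = 2.80e-04), as were 54.5% of the listed genes.

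Transcripts for the proteins that CTSA holds in a complex were higher as well, for 3 of 3 genes, beside 47.6% of the listed genes. NEU1, the neuraminidase, had 1655, 1478 and 1599 normalized counts in DU145-TFEB and 796, 726 and 775 in DU145-vector, a log2 fold change of 1.04 beside 1.06 for CTSA. NEU1 had 0.35 with the trend removed (limma adjusted p = 0.00389) and CTSA 0.13, which did not pass. GALNS (1.01) and GLB1 (0.75), the beta-galactosidase, followed. The median of these 3 genes was 1.01, and 0.27 with the trend removed, when GALNS no longer passed (0.16, limma adjusted p = 0.0747). Of 7 other lysosomal peptidases, 6 were higher and 1 was lower, beside 47.6% and 52.4% of the listed genes, and their median was 0.73. After removal of the trend 6 were higher, beside 14.8% of the listed genes, LGMN did not pass, and the median was 0.48. DPP7, a dipeptidyl peptidase, had the highest log2 fold change (1.31) and also the highest level per kilobase in DU145-TFEB. It had 0.21 with the trend removed, and PRCP (1.35) and CPQ (1.33) were then the highest. LGMN, the asparaginyl endopeptidase that processes several cathepsins, had 0.58, or -0.05 with the trend removed, and GGH, which trims folates, was the one that was lower (-0.24). GGH did not pass under other scalings, edgeR or DESeq2, nor without DU145-TFEB replicate 1 (-0.19), DU145-vector replicate 1 (-0.23) or DU145-vector replicate 2 (-0.19), and was 0.40 with the trend removed.

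Of 14 genes for mannose 6-phosphate tagging and sorting, 11 were analysed, and 8 were higher and 3 were lower, beside 47.6% and 52.4% of the listed genes, with a median of 0.57. With the trend removed 4 were higher and 5 were lower, beside 14.8% and 54.5% of the listed genes, and the median was -0.14. The tagging enzyme itself was split, since GNPTG, its gamma subunit, had a log2 fold change of 0.96 and GNPTAB, which encodes the catalytic alpha and beta subunits, of -1.35 (limma adjusted p = 5.98e-05). GNPTAB had 573 ± 152 normalized counts in DU145-TFEB against 1423 ± 49.2 in DU145-vector (SD, n = 3 per group), and had -0.46 with the trend removed, whereas GNPTG had -0.05. Both receptors for the tag were higher, IGF2R with 0.75 and M6PR with 0.62, and these values were 1.12 and 0.62 with the trend removed. AP1G1, a subunit of the adaptor that loads the receptors into clathrin-coated vesicles, was the lowest of the list (-1.78, or -1.04 with the trend removed), and the alternative receptor SORT1 had -0.34, or 0.23 with the trend removed, and did not pass with upper quartile scaling, the size factors of DESeq2 or DESeq2 itself. The most abundant gene of the list per kilobase was AP1S1, another adaptor subunit, with 0.57 and, with the trend removed, -0.38.

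**Figure D5:**
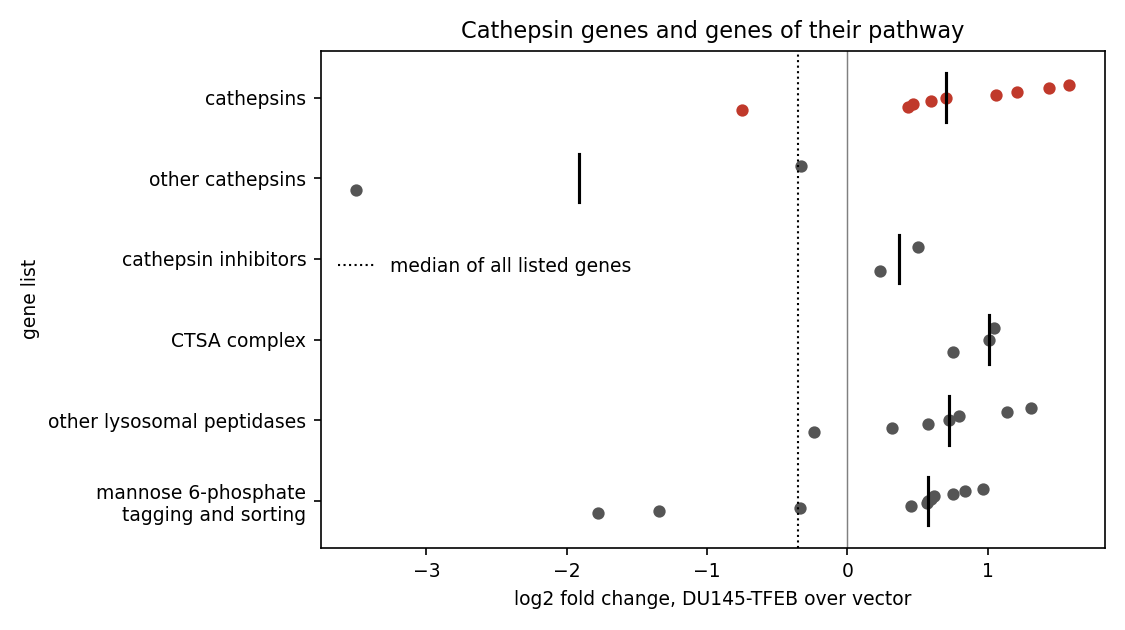
Log2 fold change in DU145-TFEB over DU145-vector of the cathepsin genes (red) and of genes of their pathway (grey), with 1 point per gene and a black line at the median of each list. The dotted line is the median of all listed genes, -0.36, and lies below the medians of the cathepsins (0.71), their inhibitors (0.37), the CTSA complex (1.01), the other peptidases (0.73) and the sorting genes (0.57). The dotted line lies above the median of the other cathepsins, CTSS and CTSV (-1.91). With the trend removed, the medians of the inhibitors (-0.23) and the sorting genes (-0.14) turned negative but stayed above that of all listed genes (-0.32).

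Marker genes of cell types were looked at, though epithelial keratins cannot tell DU145 from other epithelial lines. The epithelial keratins KRT8, KRT18 and KRT19 were analysed and abundant in all libraries, KRT8 with at least 14615 normalized counts. All 3 were lower in DU145-TFEB, as were 52.4% of the listed genes, with log2 fold changes of -0.68, -0.78 and -0.38. For KRT19 the groups overlapped, and it did not pass with upper quartile scaling, the size factors of DESeq2, DESeq2 itself or without DU145-TFEB replicate 1 (-0.31, limma adjusted p = 0.0524). The GC content of the 3 genes was 57.3% to 60.4%, within the range of the cathepsins. With the trend removed their log2 fold changes were -1.61, -1.72 and -1.49. All 3 were then called lower, as were 54.5% of the listed genes, whose median was -0.32. The other 4 epithelial markers considered and the 6 macrophage and 6 fibroblast markers were not analysed here, so the part of other cell types in the cathepsin levels was not tested.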

How the data were processed

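The table covered 3 libraries of DU145-TFEB and 3 of DU145-vector from RNA-sequencing, grouped and numbered by the sample labels. The submitters' processing notes name CASAVA 1.8, HISAT2 2.1.0, edgeR and the build GRCh38, and the methods name DESeq2 for the comparison. The counting program, the annotation and the strand setting are not given in the sources used here. Positions were those of GENCODE 29 for 10541 of 10542 genes, and lengths were those of its merged exons for 10541.

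The authors deposited a normalized signal, that is, read counts divided by 1 size factor per library (0.950 to 1.10). Columns of the authors' own comparison hold fold changes and p-values. Of the deposited p-value columns only the adjusted one was read, to check that all 10542 rows were below 0.05. Reads were recovered from the step of each library, and 100.0% of the values came out whole within 0.01. Each cathepsin had at least 144 reads in every library. The read totals cover listed genes only.

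limma 3.58.1 (R 4.3.3) with a mean-variance trend was fitted to log2(normalized count + 1) over all listed genes, with no filter on low values. A count test was not the main test because the table holds normalized values. For DEGs the cutoffs of the study were used, 0.05 for the adjusted p-value and 1.5 for the absolute log2 fold change. The trend with GC content (transcripts of GENCODE 29, 10537 genes) and log2 gene length was removed from each library by loess (span 0.5), and its mean was put back. Alternatives were other pseudocounts, a filter, other scalings, a replicate block, leaving out single libraries, and edgeR 4.0.16 (1857 DEGs) and DESeq2 1.42.0 (1562 DEGs) on recovered reads. Scripts were tested on simulated counts. The members and gene lists were chosen with earlier results of these data known. The rule for named genes took the cathepsins, TFEB and, from each list, the highest and lowest log2 fold change and the most abundant gene per length. Other genes were named after their values were seen, and 1 gene is not reported here. Protein sequences were not analysed here.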

Additional observations from a re-analysis of the deposited data

How the results depend on the processing

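All 9 cathepsins kept their direction and an adjusted p-value below 0.05 with pseudocounts of 0.5 and 5, with a mean of at least 100 normalized counts, with DESeq2's size factors, upper quartile scaling, edgeR, DESeq2 and the replicate block, and without any 1 library. With quantile normalization 8 did (CTSK did not pass). With the trend with length and GC content removed 7 passed the test, of which 5 kept their direction and CTSF (-0.24) and CTSZ (-0.72) were reversed, also with the replicate block. The same step reversed the medians of the inhibitors (-0.23), the sorting genes (-0.14) and the matrix genes (-0.077), while the median of all listed genes was then -0.32. The number of cathepsin DEGs was 2 with DESeq2's size factors, upper quartile scaling, quantile normalization, DESeq2 and edgeR, 4 at a cutoff of 1, and 1 to 2 with single libraries left out. With the trend removed it was 1, but the gene was CTSC. The median log2 fold change of the cathepsins was 0.95 with DESeq2's size factors and with DESeq2, 0.88 with upper quartile scaling, 0.96 with quantile normalization, 0.78 with edgeR, 0.13 with the trend removed (with and without the replicate block), and 0.65 to 0.77 with single libraries left out. The median of all listed genes moved with it, to -0.12, -0.18, -0.03 and -0.28 with DESeq2's size factors, upper quartile, quantile normalization and edgeR. Among listed genes there were 2009 DEGs, 4161 at a cutoff of 1, 1225 with a mean of at least 100, 551 with the trend removed, 548 with the replicate block added to that, and 1584 to 2316 with single libraries left out. Of these DEGs 86.7% were lower. This share was 70.3% with DESeq2's size factors, 76.3% with upper quartile scaling, 58.5% with quantile normalization, 69.0% with DESeq2, 82.3% with edgeR, 72.4% with the trend removed, 92.3% with a pseudocount of 5, and 96.5% with a mean of at least 100. Beyond what the construction of each setting shows, the cause of these changes was not tested. The log2 ratio of the summed level was 0.85 and ran from 0.83 to 1.13 over its alternatives, of which the mean coding transcript length was chosen after seeing the data. Removal of the trend was not among these alternatives. In that setting CTSZ (-0.72) and CTSL (0.07), which made up much of the sum, were not higher by the test, so how far the sum depends on the trend was not tested.

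Replicate numbers did not pair the libraries: deviations of same-numbered libraries from their group means correlated at -0.02, -0.25 and -0.14 across genes. With the replicate block alone, 9 cathepsins were called and 2011 listed genes were DEGs.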

Other observations

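Secreted CTSB is known to bind a complex of ANXA2 and S100A10 at the cell surface and to activate the protease encoded by PLAU. Of this list, these 3 of 4 genes were analysed. PLAU was higher in DU145-TFEB (log2 fold change 0.33, limma adjusted p = 0.00699), and -0.47 with the trend with gene length and GC content removed. ANXA2 (-0.29, or 0.05 with the trend removed) and S100A10 (-0.44, or -0.89 with the trend removed), the most abundant of them per kilobase, were lower. ANXA2 did not pass with the size factors of DESeq2 (-0.05), with upper quartile scaling (-0.11), with DESeq2 (-0.05) or with the trend removed, and S100A10 did not pass with DESeq2 (-0.19, DESeq2 adjusted p = 0.0603). Matrix and adhesion genes whose proteins cathepsins can cut were split, as 4 of the 6 analysed, of 11 listed, were higher and 2 were lower, beside 47.6% and 52.4% of the listed genes, and with the trend removed 3 were higher and 3 were lower, beside 14.8% and 54.5%. COL18A1, which encodes the collagen from which endostatin is released, rose from 4963 ± 252 normalized counts in DU145-vector to 12468 ± 588 (SD, 3 libraries each). Its log2 fold change was 1.33 (limma adjusted p = 2.30e-06), or 0.39 with the trend removed. LAMB3, a laminin chain and the most abundant per kilobase, had 0.57, or -0.43 with the trend removed. LAMB1, another laminin chain, was the lowest of the list with -0.96, and -0.93 with the trend removed.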
